A study of Mus musculus with 6 samples.

Results

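Genes of the cell cycle were examined in the transcriptome of macrophages (MPs) sorted from regenerating mouse skeletal muscle. A list of 46 gene symbols was looked up by name in the table of normalized expression, and 46 of them were present among its 13008 genes. By their known roles they were placed in mitosis (22 genes), DNA replication (13 genes) and the passage from G1 to S phase (G1/S, 9 genes), with Stmn1 and Hmgb2 (2 genes) kept apart. Members were looked up by gene name, from a list chosen with earlier results of these data known.

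The samples were 3 Control and 3 Cripto KO. All came from C57BL/6J mice labelled male and 3 months of age, whose tibialis anterior, gastrocnemius and quadriceps had been injured with cardiotoxin, a snake venom toxin that destroys muscle fibers. On day 5 the muscles were digested, F4/80+/Ly6C-low MPs were sorted by FACS, and libraries were made from their RNA. The labels give the genotype of the Control mice as wild type and that of the Cripto KO mice as Tg:LysMCre::Cripto-/-, while the study's methods describe reporter lines, GFP-Control and GFP-CriptoMy-LOF, that both carry LysMCre and R26mTmG, so that sorted cells are GFP+. LysM, the lysozyme M promoter, drives Cre in the myeloid lineage, so recombination is not limited to MPs. Cripto is a cell-surface protein that binds ligands of the TGFβ family.

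A cell that divides copies its DNA in S phase and separates the copies in mitosis. D-type and E-type cyclins with their kinases release the E2F factors from the retinoblastoma proteins, the E2F factors switch on the genes of DNA replication, and a later wave of genes, many with the elements called CCAAT box and CHR in their promoters, serves mitosis. Monocytes that enter injured muscle become Ly6C-low MPs, which can divide in the tissue, and p21, the product of Cdkn1a, is a known brake on division.

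The recovered reads summed to between 12688968 and 14141773 per Control sample and between 14633880 and 15659847 per Cripto KO sample. A gene with 3 reads had a value between 0.222 and 0.286, and limits of this kind cover counting error only. Some libraries stood apart. Control replicate 1 was the Control library with Xist, a transcript of the inactive X chromosome, at 171, against at most 0.885 elsewhere and against its label. Lyz2, the lysozyme gene into which LysMCre is inserted, was at 11066 in Control replicate 2 and at most 28.3 elsewhere. Control replicates 1 and 3, at 25.2 and 21.4, were near the Cripto KO samples, at 21.2 to 28.3. The Control samples were thus not alike in Lyz2, although the labels give them the same genotype. Which level is the usual one was not tested. Results that rest on Control replicate 1 are therefore also given without it. Counts over groups and many single genes are also given without Control replicate 2. Of the macrophage markers 8 of 8 were measured, with a summed value of 9533 to 9772 in Control and 8788 to 9711 in Cripto KO MPs, although Itgam, which encodes CD11b, was low, at 0.258 to 1.45. Tdgf1, which encodes Cripto, was not analysed here, and the deletion could not be checked in the RNA.

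No cell cycle gene passed the test between genotypes. With limma on log2 values and Benjamini-Hochberg adjustment over 13008 genes, 0 of the 46 genes had an adjusted p under 0.05, where 17 of all genes (0.131%) did, and the adjusted p of the members lay between 0.523 and 0.990. At an unadjusted p under 0.05, 1 member was higher in Control, Cdkn1a, against 4.6% of all genes, and 1 was higher in Cripto KO MPs, Ube2c, against 3.99% of all genes. DESeq2 and edgeR on the recovered reads also called 0 members after adjustment. The samples are bulk RNA, so fewer dividing cells and less RNA of these genes per cell cannot be told apart. Nothing in the labels says how many mice each sample pooled, and p-values measure the spread between these 6 samples.

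The width of the intervals shows how much of a difference the data could have held. The 95% interval of the fold change lay within 2-fold in either direction for 44 of the 46 members (95.7%), compared with 94.3% of the 10683 genes in the same range of mean values. It lay within 1.5-fold for 31 of the 46 members (67.4%), compared with 75.5% of the same genes. The 31 were 12 of 13 DNA replication genes, 12 of 22 mitosis genes, 5 of 9 G1/S genes and 2 of 2 others. The exceptions to the 2-fold bound were Ccnb1, with an interval of log2(Control/Cripto KO) from -1.05 to 0.29, and Ccnd2, with an interval from -1.17 to 0.43. The fitted log2 fold changes of the members went from -0.40 to 0.32, with positive values meaning higher in Control. Every value called a fold change of a gene below is on this log2 scale. Their median absolute size was 0.13, compared with 0.12 for all genes and 0.10 for the genes in the same range of mean values. By sub-group it was 0.17 for mitosis, 0.036 for DNA replication and 0.18 for G1/S.

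**Figure D1:**
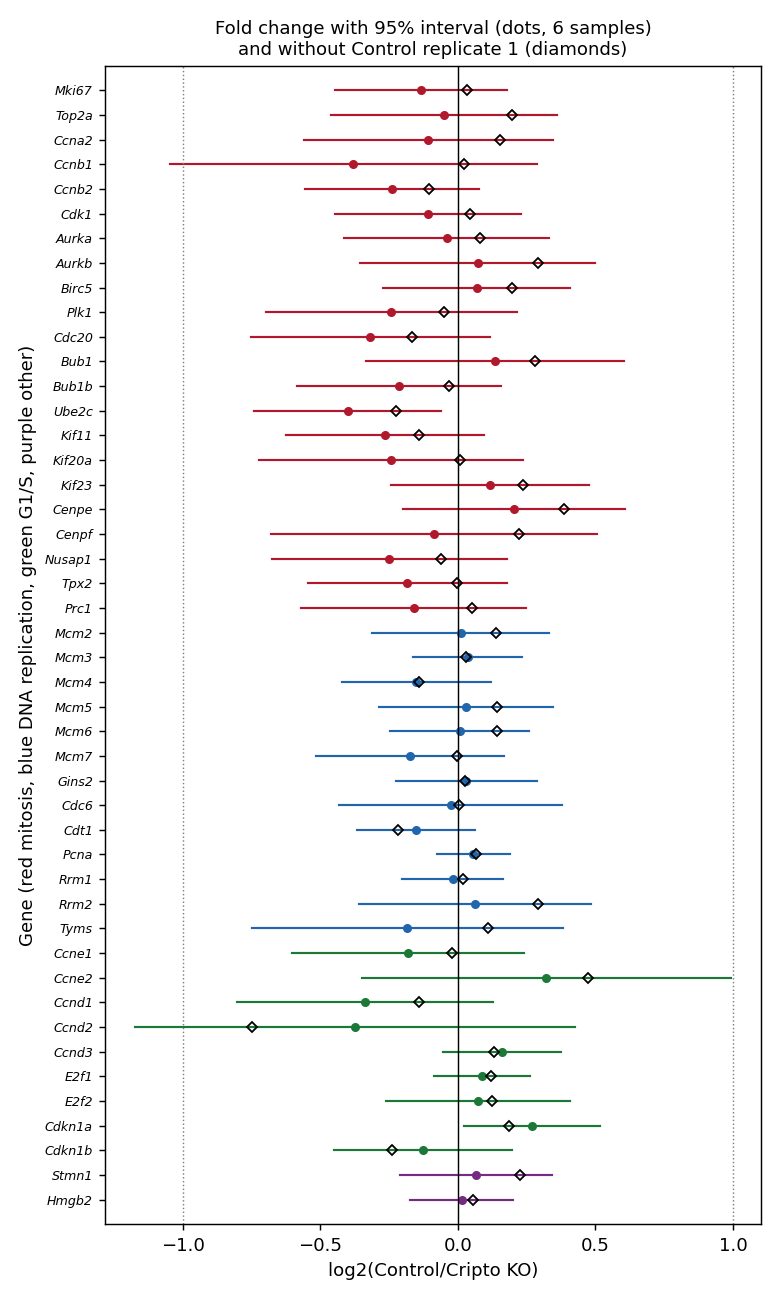
Fold changes of the 46 cell cycle genes as log2(Control/Cripto KO) (horizontal axis), one gene per row, with dots and lines for the value and 95% interval from 3 Control and 3 Cripto KO samples, diamonds for the value without Control replicate 1, and dotted lines at 2-fold. The lines of all genes except Ccnb1 and Ccnd2 stay inside the 2-fold bounds, and the diamonds of the mitosis genes lie to the right of their dots.

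The mitosis genes were the group in which the samples differed most from each other, and the difference set 1 library apart from the other 5. The values of the 22 genes had sums of 249, 358 and 381 in the Control samples, by replicate number, against sums of 361, 342 and 359 in the Cripto KO samples. Control replicate 1 thus lay 27.3% below the lowest of the other 5 samples, on 3367 reads, while Control replicate 3 was the highest of all. The groups overlapped, and their means were 329 ± 70.7 (SD, n = 3) for Control against 354 ± 10.6 (SD, n = 3) for Cripto KO. Of the 22 genes, 20 (90.9%) had their lowest value in Control replicate 1, compared with 18.9% of all genes, and Bub1 and Kif23 had theirs in Cripto KO replicates 1 and 2. Genes of mitosis move together in a sample, so they are not independent counts.

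**Figure D2:**
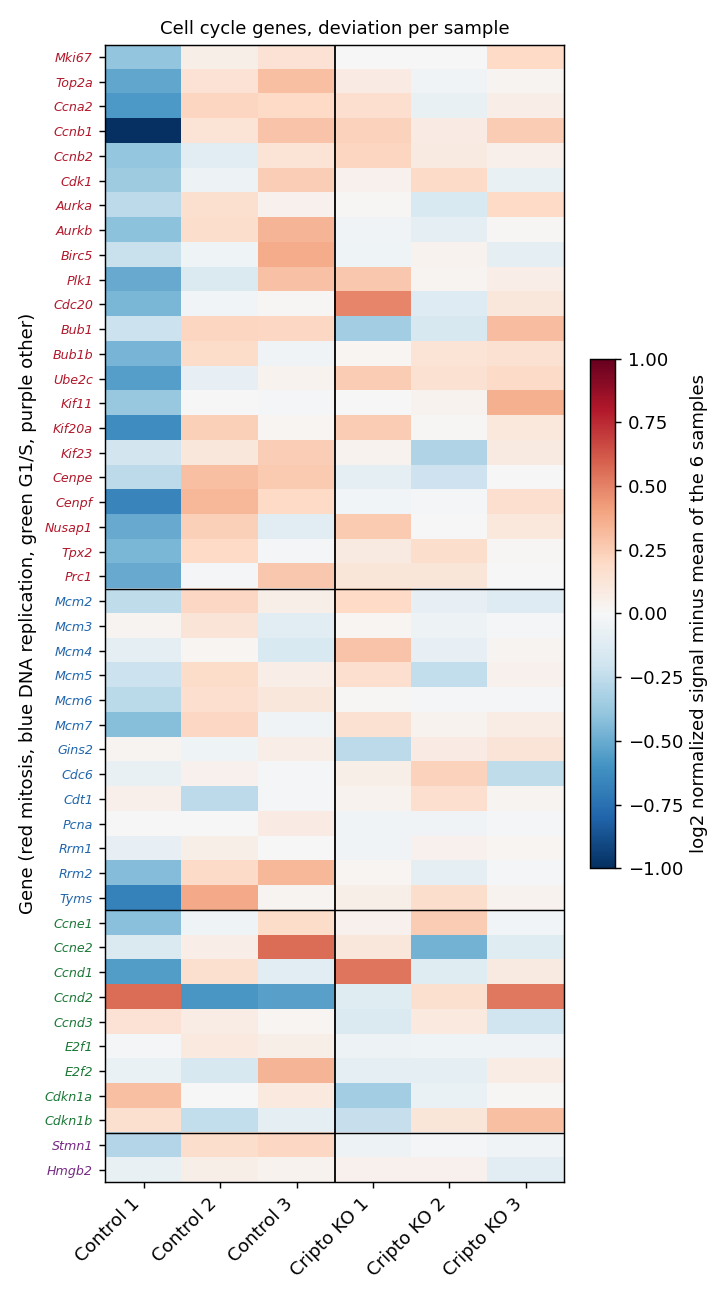
Heat map of the 46 cell cycle genes (rows, grouped as mitosis, DNA replication, G1/S and other) in the 6 samples (columns), with color for the log2 normalized signal minus the gene's mean over the 6 samples. The column of Control replicate 1 is blue, that is low, for 20 of 22 mitosis genes below every other sample, while the DNA replication and G1/S rows are paler or mixed.

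The level in Control replicate 1, as log2 of its value over the median of the other 5 samples, was below 0 for 22 of 22 mitosis genes, with a median of -0.52 and a range from -1.22 for Ccnb1 to -0.18 for Birc5. Over all genes the median was 0.0076. Among markers of other cells, endothelial genes summed to 41.6 in this library and to 32.0 to 38.3 in the others. Pecam1 and Kdr were highest in this library, but Cdh5 was highest in Cripto KO replicate 3 and Tek in Control replicate 2. B cell markers, mostly Cd79b, summed to 11.0 in this library and to 6.16 to 8.92 in the others. Fibroblast markers summed to 459 there, 471 and 481 in the other Control samples and 539.9 to 591 in Cripto KO MPs. Myoblast markers were at 6.22 and at 6.55 to 11.5 in the others, with Myod1 and Myf5 not analysed here. The part of these cells, and of whatever set Xist apart in this library, in the mitosis values was not tested.

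The promoters of these genes were read from RefSeq (GRCm38.p6), as windows of 300 bases from 250 before to 50 after the start site. A window was found for 36 of the 46 members, and for some more than 1, giving 41 windows. Ccna2, Aurkb, Kif20a, Tpx2, Mcm4, Gins2, Ccne2, Ccnd1, Ccnd2 and Stmn1 had none. Searched on both strands were the letters CCAAT, the letters TTTGAA of the CHR, and TTTCCCGC, TTTGGCGC and TTTCGCGC, which are spellings of the E2F element, and the last pair can overlap on opposite strands. Printed are the windows of Ccnb2 and Cdk1, which drive entry into mitosis, and of Ube2c, the mitosis gene with the smallest p, written 5′ to 3′ on the gene's strand with these letters or their reverse complements in capitals. Ccnb2 lies at chr9:70421505-70421804 on the minus strand, Cdk1 at chr10:69352863-69353162 on the minus strand, and Ube2c at chr2:164769679-164769978 on the plus strand.
Ccnb2: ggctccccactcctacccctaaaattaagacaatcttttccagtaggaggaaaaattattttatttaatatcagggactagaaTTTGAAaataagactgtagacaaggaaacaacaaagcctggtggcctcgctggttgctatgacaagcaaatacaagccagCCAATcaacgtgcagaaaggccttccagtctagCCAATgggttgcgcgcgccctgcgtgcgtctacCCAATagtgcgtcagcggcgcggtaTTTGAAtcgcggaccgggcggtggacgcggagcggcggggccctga
Cdk1: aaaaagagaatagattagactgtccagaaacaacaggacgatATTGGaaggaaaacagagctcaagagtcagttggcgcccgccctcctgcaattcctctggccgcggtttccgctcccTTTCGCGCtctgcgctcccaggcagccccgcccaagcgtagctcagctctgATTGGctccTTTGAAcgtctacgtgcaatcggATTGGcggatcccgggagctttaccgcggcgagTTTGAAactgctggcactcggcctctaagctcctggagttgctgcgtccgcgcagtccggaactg
Ube2c: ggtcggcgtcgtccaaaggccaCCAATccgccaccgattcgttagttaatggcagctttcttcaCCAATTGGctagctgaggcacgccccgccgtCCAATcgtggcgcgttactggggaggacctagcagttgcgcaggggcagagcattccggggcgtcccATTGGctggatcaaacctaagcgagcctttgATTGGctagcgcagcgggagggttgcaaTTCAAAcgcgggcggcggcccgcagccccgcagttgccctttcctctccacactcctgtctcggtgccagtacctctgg

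In the Ccnb2 window the 3 CCAAT matches began 87, 54 and 21 bases before the start site and a TTTGAA began 167 bases before it and another 5 bases after it. The Cdk1 window held 3 CCAAT matches in reverse, at 208, 80 and 48 bases before the start, TTTGAA at 71 and 15 bases before, and TTTCGCGC at 131 bases before. The Ube2c window held 6 CCAAT matches, 3 in each orientation, and 1 TTTGAA in reverse at 29 bases before the start. CCAAT was present in 17 of the 19 windows of mitosis genes (89.5%), compared with 37.4% of all 32851 promoter windows. TTTGAA was in 14 of the 19 (73.7%), compared with 17.9% of all windows. Each of these 14 also held CCAAT, a pair found in 6.95% of all windows. The 19 windows belong to 18 genes, as Prc1 has 2 that overlap and hold the same matches. By gene, CCAAT was in 16 of 18 and TTTGAA in 13 of 18. A spelling of the E2F element was in 1 of the 19 windows (5.26%), compared with 1.84% of all. A match describes the letters and does not show that a factor bound there.

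Mki67 encodes Ki-67, the protein that coats mitotic chromosomes and marks cycling cells, and Top2a encodes the topoisomerase that untangles them. The values of Mki67 (ENSMUSG00000031004) were 30.7, 42.0 and 44.6 for Control replicates 1 to 3 against 40.6, 40.2 and 46.4 for Cripto KO replicates 1 to 3. Control replicate 1 was the lowest sample, the other 5 lay close together, and the groups overlapped. The means were 39.1 ± 7.42 (SD, n = 3) and 42.4 ± 3.43 (SD, n = 3), and the log2 fold change was -0.13 (standard error 0.14, limma, adjusted p = 0.823). Without Control replicate 1 it was 0.033, and without Control replicate 2 it was -0.19. Top2a (ENSMUSG00000020914) was at 31.3, 49.6 and 55.2 in Control and at 47.5, 43.9 and 45.7 in Cripto KO MPs. The Control samples thus held both the lowest and the 2 highest values, and the log2 fold change of -0.051 (standard error 0.18, limma, adjusted p = 0.961) turned to 0.20 without Control replicate 1. It was -0.14 without Control replicate 2.

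Cyclins A and B and the kinase CDK1 drive entry into mitosis. Ccna2, cyclin A, was at 12.3, 21.2 and 21.01 in Control and at 20.5, 17.4 and 19.1 in Cripto KO replicates 1 to 3. Ccnb1, cyclin B1 and the partner of CDK1, was at 4.82, 10.6 and 11.7 in Control and at 11.3, 10.2 and 11.5 in Cripto KO MPs. Ccnb1 in Control replicate 1 was below 5 other samples that hardly differed, the largest such gap among the 22 mitosis genes, and its fold change was -0.38 (standard error 0.29) with that sample and 0.022 without it. Ccnb1 shares 27.7% of the 31-base words of its transcripts with its pseudogene Ccnb1-ps and other genes, so its reads are uncertain. Cdk1 was at 19.3, 23.8 and 29.2 in Control and at 25.4, 28.1 and 23.4 in Cripto KO MPs, with overlapping groups and a fold change of -0.11 (standard error 0.15). Plk1, the polo-like kinase that matures the spindle poles, was at 6.00, 7.68 and 10.4 in Control and at 10.3, 8.67 and 8.93 in Cripto KO MPs. Its highest and its lowest sample were both Control, and 14.8% of its words are shared, mostly with Plk-ps1. The fold changes of Ccna2, Cdk1 and Plk1 were -0.11, -0.11 and -0.24 with all samples and 0.15, 0.044 and -0.051 without Control replicate 1. Without Control replicate 2 those of Ccna2, Ccnb1, Cdk1 and Plk1 were -0.24, -0.54, -0.11 and -0.23. Of the 8 genes grouped with the cyclins and kinases, which also include Ccnb2, Aurka, Aurkb and Birc5, whose product survivin is a partner of Aurora B and no kinase, 8 were lowest in Control replicate 1, and their fold changes went from -0.38 for Ccnb1 to 0.071 for Aurkb.

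Ube2c was the member with the smallest p. It encodes the ubiquitin-conjugating enzyme that works with the anaphase-promoting complex (APC/C) to degrade cyclin B. Ube2c (ENSMUSG00000001403, chromosome 2 from 164769898 to 164778822 on GRCm38) was at 12.5, 17.3 and 18.7 in Control and at 21.9, 20.4 and 20.9 in Cripto KO replicates 1 to 3. All 3 Cripto KO samples were above all 3 Control samples, and Control replicate 1 was again the lowest. The means were 16.2 ± 3.27 (SD, n = 3) and 21.03 ± 0.777 (SD, n = 3), a log2 fold change of -0.40 (standard error 0.15, limma, unadjusted p = 0.0260, adjusted p = 0.523). Without Control replicate 1 it was -0.22 (unadjusted p = 0.0663 by limma), and without Control replicate 2 it was -0.46.

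Cdc20, the activator of the APC/C, was at 7.62, 10.3 and 10.6 in Control and at 14.7, 9.59 and 11.3 in Cripto KO MPs. Cripto KO replicate 1 was the highest of its 6 values, the groups overlapped, and 25.5% of its words are shared, mostly with Gm7856. Bub1b and Bub1, kinases of the spindle checkpoint, had fold changes of -0.21 (standard error 0.16) and 0.14 (standard error 0.21), and both intervals included 0. These were -0.031 and 0.28 without Control replicate 1 and -0.36 and 0.062 without Control replicate 2. The fold change of Cdc20 was -0.32 (standard error 0.19), or -0.17 without Control replicate 1 and -0.38 without Control replicate 2.

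Kif11 encodes the motor that pushes the spindle poles apart, and Cenpe a motor of the kinetochore. Kif11 was at 7.77, 10.1 and 10.0 in Control and at 10.1, 10.4 and 12.9 in Cripto KO MPs. Its groups did not overlap, but Control replicate 2 and Cripto KO replicate 1 were equal at the digits given, and the fold change of -0.26 had a standard error of 0.16 and was -0.14 without Control replicate 1. With Ube2c this made 2 of the 46 members (4.35%) in which every Cripto KO value exceeded every Control value, as did 6.43% of all genes. Cenpe was at 6.74, 9.95 and 9.67 in Control and at 7.59, 6.97 and 8.03 in Cripto KO MPs. Except for Control replicate 1 the Control samples were above the Cripto KO samples, and the fold change was 0.20 (standard error 0.18), or 0.38 (limma, unadjusted p = 0.0341, adjusted p = 0.440) without that replicate. Without Control replicate 2 the fold change of Cenpe was 0.10. Of the 8 genes of spindle, kinetochore and cytokinesis, 7 were lowest in Control replicate 1, and their fold changes went from -0.26 for Kif11 to 0.20 for Cenpe.

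The sign of the mitosis group depended on that library. With all samples Control had the higher mean for 5 of the 22 genes and the median log2 fold change was -0.15, compared with 0.011 over all genes. Without Control replicate 1 the number was 14 of 22 and the median 0.039, and without Control replicate 2 they were 5 of 22 and -0.23. In neither case did a mitosis gene reach an adjusted p under 0.05, where 31 of all genes (0.238%) and 16 of all genes (0.123%) did.

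**Figure D3:**
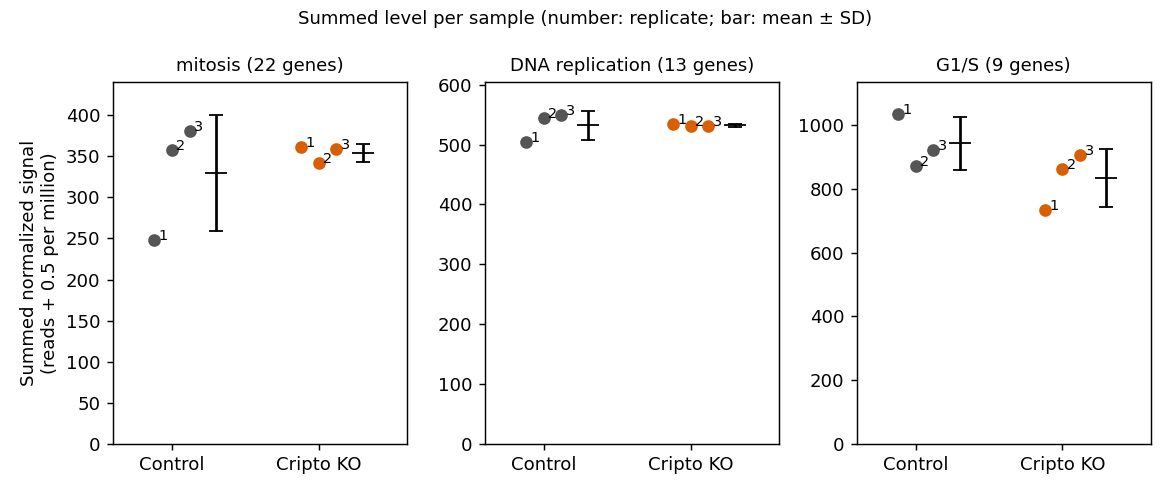
Summed normalized signal (vertical axis, reads plus 0.5 per 1000000, from 0) of the mitosis, DNA replication and G1/S genes in each sample, with a numbered point per replicate and a bar for the group mean ± SD (n = 3). Control replicate 1 has the lowest point in mitosis (249) and in DNA replication (505) and the highest in G1/S (1036).

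The sums of the DNA replication genes varied less between samples than those of the mitosis and G1/S genes. For their 13 values they were 505, 544 and 549 for the Control samples against 535, 531 and 531 for the Cripto KO samples, with means of 533 ± 24.1 (SD, n = 3) and 532 ± 2.29 (SD, n = 3). Control replicate 1 was again the lowest sample, 4.85% below the next. Pcna, with a mean value of 214, makes up a large part of these sums. Taken per gene, the median log2 deviation of a sample from the 6-sample mean went from -0.091 to 0.13 for DNA replication. It went from -0.097 to 0.057 for the G1/S genes and from -0.46 to 0.20 for the mitosis genes. By this measure the DNA replication genes did not vary less than the G1/S genes. Control had the higher mean for 7 of the 13 genes and Cripto KO for 6, and the median log2 fold change was 0.0075, with a median absolute size of 0.036. Without Control replicate 1 Control had the higher mean for 10 of the 13, with a median of 0.031, and without Control replicate 2 for 2 of the 13, with a median of -0.057. Control replicate 1 was the lowest sample for 6 of the 13 (46.2%), and its median log2 distance from the other samples was -0.12.

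Mcm2 to Mcm7 encode the ring of the replicative helicase, Gins2 a part of its active form, and Cdc6 and Cdt1 the factors that load it at origins. The Mcm5 and Mcm6 promoter windows, printed the same way, lie at chr8:75109259-75109558 on the plus strand and at chr1:128359656-128359955 on the minus strand. They are shown as examples of windows with E2F spellings, of which the Cdk1 window above also holds 1.
Mcm5: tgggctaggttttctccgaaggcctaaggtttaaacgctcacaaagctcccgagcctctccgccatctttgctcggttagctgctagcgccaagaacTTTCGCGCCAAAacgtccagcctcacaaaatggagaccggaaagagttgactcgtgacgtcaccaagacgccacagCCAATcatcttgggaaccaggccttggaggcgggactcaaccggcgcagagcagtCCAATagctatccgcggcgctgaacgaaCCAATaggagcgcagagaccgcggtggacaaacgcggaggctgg
Mcm6: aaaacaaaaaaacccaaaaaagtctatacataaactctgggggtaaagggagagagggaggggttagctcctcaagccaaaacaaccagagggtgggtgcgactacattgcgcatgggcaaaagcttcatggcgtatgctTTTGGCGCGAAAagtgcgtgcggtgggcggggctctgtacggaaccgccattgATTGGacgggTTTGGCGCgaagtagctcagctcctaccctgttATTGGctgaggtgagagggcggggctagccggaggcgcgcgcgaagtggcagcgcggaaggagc

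The Mcm5 window held TTTCGCGC at 153 bases and, overlapping it on the other strand, TTTGGCGC at 149 bases before the start. In the Mcm6 window TTTGGCGC began 110 and 47 bases before the start, and TTTCGCGC began in reverse at 106 bases. At least 1 of the 3 spellings was in 6 of the 12 windows of replication genes (50%), compared with 1.84% of all windows. TTTGAA was in 1 of the 12 (8.33%) and CCAAT in 9 of the 12 (75.0%).

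Mcm2 was at 16.9, 23.2 and 20.9 in Control and at 23.1, 18.9 and 18.4 in Cripto KO replicates 1 to 3, with a fold change of 0.0104 (standard error 0.14). Mcm5 was at 20.1, 26.5 and 24.4 in Control and at 26.1, 19.6 and 24.0 in Cripto KO MPs, with a fold change of 0.029 (standard error 0.14). In both genes the groups covered nearly the same range, and the lowest sample was Control replicate 1 for Mcm2 and Cripto KO replicate 2 for Mcm5. Both fold changes were 0.14 without Control replicate 1. Without Control replicate 2 they were -0.090 for Mcm2 and -0.057 for Mcm5. Cdc6 was at 5.12, 5.56 and 5.35 in Control and at 5.62, 6.34 and 4.51 in Cripto KO MPs, so that the Control values lay inside the range of the Cripto KO values. The 9 genes of the helicase and of origin licensing had fold changes from -0.17 for Mcm7 to 0.036 for Mcm3, and for 9 of 9 the interval lay within 1.5-fold. Leaving out Control replicate 1 gave -0.0027 for Mcm7, leaving out Control replicate 2 gave -0.32, and the gene shares 26.8% of its words with other genes, mostly Gm5487.

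Pcna encodes the clamp that holds the polymerases on DNA, and Rrm1, Rrm2 and Tyms make the nucleotides. Pcna (ENSMUSG00000027342) was at 215, 213 and 225 in Control and at 208, 209 and 211 in Cripto KO replicates 1 to 3. All 3 Control samples were above all 3 Cripto KO samples, by a small step, from 218 ± 6.69 (SD, n = 3) to 209 ± 1.66 (SD, n = 3). Its log2 fold change was 0.056 (standard error 0.059, limma, adjusted p = 0.823), and 23.3% of its words are shared, mostly with Pcna-ps2. Rrm2 was at 10.3, 15.9 and 17.6 in Control and at 14.1, 13.1 and 13.8 in Cripto KO MPs. It followed the pattern of Top2a, with Control replicate 1 lowest and the other Control samples highest, and its fold change was 0.062 (standard error 0.19), or 0.29 (limma, unadjusted p = 0.0386, adjusted p = 0.461) without that replicate. Without Control replicate 2 the fold change of Rrm2 was -0.019.

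The G1/S genes varied from gene to gene and not as a block. Their sums were 1036, 870.5 and 923 for the Control samples against 733, 864 and 908 for the Cripto KO samples, with overlapping groups at 943 ± 84.3 (SD, n = 3) and 835 ± 91.04 (SD, n = 3). Cdkn1a makes up most of this sum. Control had the higher mean for 5 of the 9, the median log2 fold change was 0.074, and 2 had their lowest value in Control replicate 1.

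D-type cyclins respond to growth factors and open the path to S phase with CDK4 and CDK6. Ccnd1 was at 18.1, 29.7 and 24.7 in Control and at 38.6, 24.5 and 28.3 in Cripto KO replicates 1 to 3. Ccnd2 was at 3.42, 1.55 and 1.59 in Control and at 2.13, 2.58 and 3.34 in Cripto KO MPs. Ccnd3 was at 48.0, 45.9 and 44.2 in Control and at 39.5, 46.7 and 37.9 in Cripto KO MPs. The groups overlapped in all 3, and Control replicate 1 was the lowest sample for Ccnd1 and the highest for Ccnd2 and Ccnd3. The fold changes were -0.34 (standard error 0.21) for Ccnd1, -0.37 (standard error 0.35) for Ccnd2 and 0.16 (standard error 0.095) for Ccnd3. Without Control replicate 1 that of Ccnd2 was -0.75 (limma, unadjusted p = 0.0372, adjusted p = 0.451), on as few as 19 reads in a sample, and that of Ccnd1 was -0.14. Without Control replicate 2 they were -0.18 for Ccnd2 and -0.50 for Ccnd1 (limma, unadjusted p = 0.0394, adjusted p = 0.604).

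Ccne1, cyclin E1, which with CDK2 starts replication, was at 5.19, 6.70 and 7.88 in Control and at 7.14, 8.25 and 6.79 in Cripto KO MPs. The groups overlapped, and the fold change was -0.18 (standard error 0.19), or -0.021 without Control replicate 1 and -0.20 without Control replicate 2. E2f1, an activating E2F factor, was at 32.7, 35.4 and 34.5 in Control and at 32.0, 32.1 and 32.4 in Cripto KO MPs. All 3 Control values of E2f1 were above the Cripto KO values, by little, with a fold change of 0.088 (standard error 0.077, limma, adjusted p = 0.788). E2f1 and Pcna were the 2 members of 46 (4.35%) with every Control value above every Cripto KO value, as were 8.02% of all genes. E2f2 and Ccne2, of the same families, had fold changes of 0.074 (standard error 0.15) and 0.32 (standard error 0.30).

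Cdkn1a and Cdkn1b encode p21 and p27, which inhibit the cyclin-dependent kinases. Cdkn1a (ENSMUSG00000023067, chromosome 17 from 29090976 to 29100727) was at 787, 642 and 685 in Control and at 502, 612 and 643 in Cripto KO replicates 1 to 3. The highest sample was Control replicate 1 and the lowest Cripto KO replicate 1, and the groups overlapped at Control replicate 2 and Cripto KO replicate 3. The means were 704 ± 74.5 (SD, n = 3) and 586 ± 74.0 (SD, n = 3), with a log2 fold change of 0.27 (standard error 0.11, limma, unadjusted p = 0.0364, adjusted p = 0.540). It was 0.19 (limma, unadjusted p = 0.108) without Control replicate 1 and 0.33 (limma, unadjusted p = 0.0223) without Control replicate 2. Cdkn1b was at 127, 95.8 and 106 in Control and at 96.7, 124 and 140.2 in Cripto KO MPs. Its groups overlapped widely, and its fold change was -0.13 (standard error 0.14), or -0.24 without Control replicate 1 and -0.035 without Control replicate 2.

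Stmn1 encodes stathmin, which frees tubulin from microtubules, and Hmgb2 a chromatin protein of dividing cells. Stmn1 was at 84.6, 117 and 119.7 in Control and at 100.1, 102 and 101 in Cripto KO replicates 1 to 3. The Cripto KO samples were nearly equal, and Control replicate 1 lay below them and the other Control samples above. Its fold change was 0.065 (standard error 0.12) and, without Control replicate 1, 0.23 (limma, unadjusted p = 0.00722, adjusted p = 0.285), the smallest adjusted p of any member in any setting. Without Control replicate 2 the fold change of Stmn1 was -0.0075. Hmgb2 was at 34.9, 38.2 and 37.6 in Control and at 37.7, 37.7 and 34.2 in Cripto KO MPs, with overlapping groups. Stmn1 and Hmgb2 share 22.4% and 21.4% of their words with other genes, mostly Gm11223 and Gm4739.

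Without Control replicate 1, 31 of the 46 members were higher in Control, where with all samples 19 were. At an unadjusted p under 0.05 it left 4 members higher in Control, Stmn1, Cenpe, Rrm2 and Top2a, against 5.44% of all genes, and 2 higher in Cripto KO MPs, Ccnd2 and Cdt1, against 5.01% of all genes. Without Control replicate 2, 12 of the 46 were higher in Control. At the same unadjusted threshold 1 member was then higher in Control, Cdkn1a, against 4.17% of all genes, and 4 were higher in Cripto KO MPs, Ube2c, Nusap1, Ccnd1 and Mcm7, against 3.81% of all genes. The count of members on either side thus moved with the Control library left out.

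Levels between genes were compared as the value per kilobase of annotated exons, averaged over the 6 samples. Cdkn1a was the highest at 237 per kilobase, followed by Pcna at 141 and Stmn1 at 72.8, and these 3 did not overlap with each other in any sample or with any other member. Cdt1 and Cdkn1b came next, at 28.0 and 25.2 per kilobase, with overlapping values. Ccnd3 was the highest of the D-type cyclins at 17.9 per kilobase, Ccnd1 had 7.30 and Ccnd2 0.363, and Ccne1 had 3.495 against 0.612 for Ccne2. The other members went from 14.0 per kilobase for Hmgb2 to 2.12 for Tyms, among them Mcm6 at 12.6, Ccnb2 at 11.8, Top2a at 8.72 and Mki67 at 4.05, while Cdc6, Cenpe, Ccne2, Cenpf and Ccnd2 were the lowest.

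**Figure D4:**
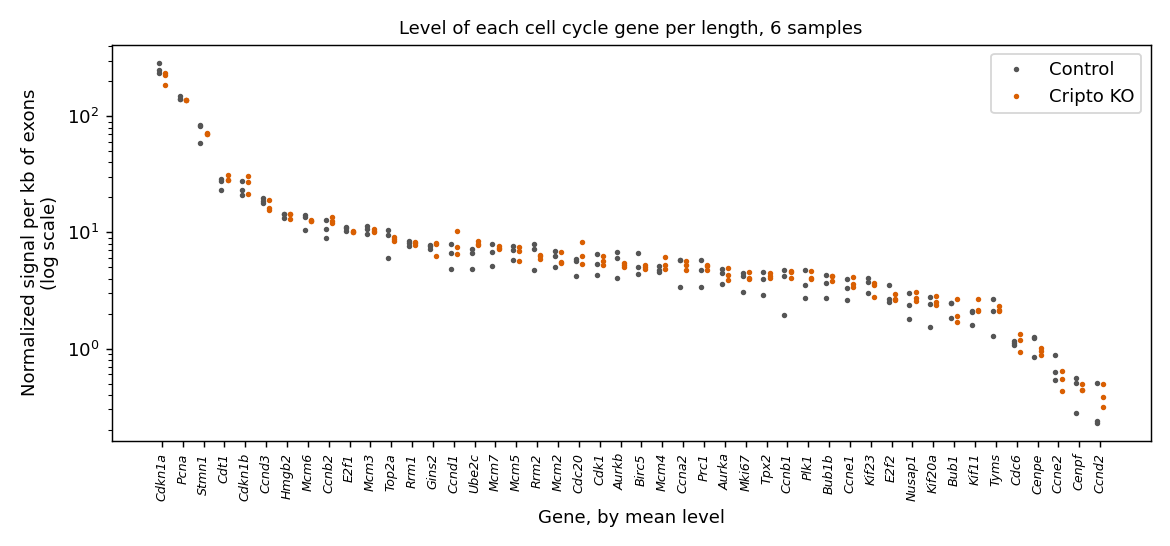
Normalized signal per kilobase of exons (vertical axis, log scale) of the 46 cell cycle genes (horizontal axis, ordered by mean level), with a point for each of the 3 Control and 3 Cripto KO samples. Cdkn1a (237), Pcna (141) and Stmn1 (72.8) stand above the rest, and Ccnd2 (0.363) is the lowest.

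Further genes of the same processes were counted from lists of their known roles. Among 40 other genes of DNA replication and 50 other genes of mitosis, 0 and 0 had an adjusted p under 0.05. Their median log2 fold changes were 0.017 and -0.088, and at an unadjusted p under 0.05 0 replication genes were higher in Control and Cripto KO MPs had 1, where the mitosis genes gave 2 and 1, beside 4.6% and 3.99% of all genes. The pattern by sample was also seen in these lists. They were read in the same 6 samples and chosen with earlier results of these data known, so they are no separate test of it. Control replicate 1 was the lowest sample for 37 of the 50 other mitosis genes (74.0%), for 17 of the 40 other replication genes (42.5%) and for 6 of 39 other regulators of the G1 to S transition (15.4%). Its median log2 distance from the other 5 samples was -0.51, -0.20 and 0.045 in these lists, and 46 of the 50 other mitosis genes were below 0.

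**Figure D5:**
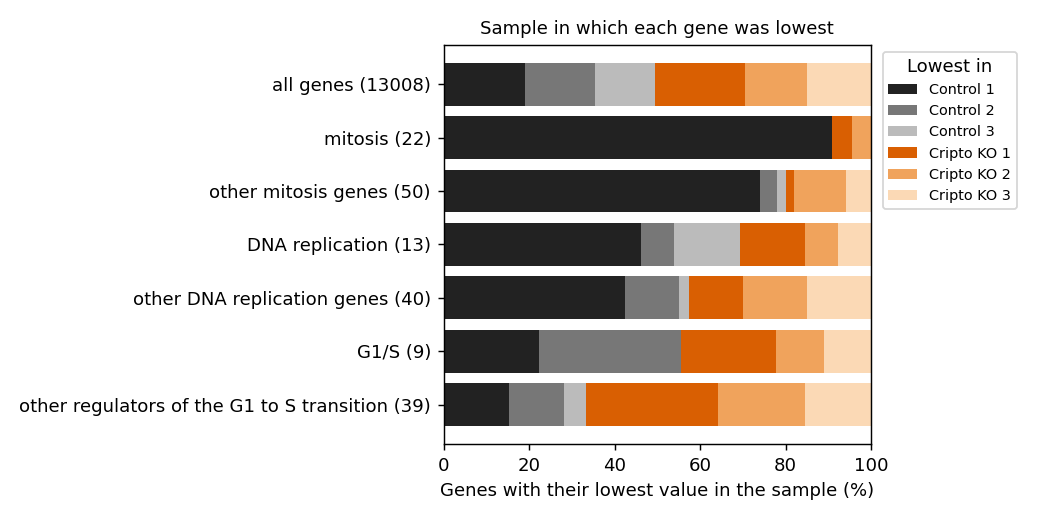
Share of genes (horizontal axis, percent) that had their lowest value in each of the 6 samples (colored segments), for all genes and for each list (rows, number of genes in parentheses). The black segment, Control replicate 1, covers 18.9% of all genes, 90.9% of the mitosis genes and 74.0% of the other mitosis genes.

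The 3 genes with the smallest p in each list are given here. Orc6, of the origin recognition complex, was at 5.63, 6.93 and 5.43 in Control and at 9.24, 7.75 and 7.62 in Cripto KO replicates 1 to 3, with no overlap and a log2 fold change of -0.46 (limma, adjusted p = 0.512). Dnmt1, the maintenance DNA methyltransferase, had a fold change of -0.21 (adjusted p = 0.590 by limma), and Fen1, the flap nuclease, of 0.17 (adjusted p = 0.690 by limma). Ttk, a checkpoint kinase, was at 1.80, 3.75 and 3.14 in Control and at 1.87, 1.31 and 1.41 in Cripto KO MPs. Only Control replicate 1 of the Control samples fell within the range of the Cripto KO samples, and the fold change was 0.87 (limma, adjusted p = 0.524) with it and 1.18 (limma, adjusted p = 0.256) without it. Pttg1, securin, had a fold change of 0.60 (adjusted p = 0.553 by limma), and Nek2, a centrosome kinase, of -0.41 (adjusted p = 0.575 by limma).

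Of the 39 regulators of the G1 to S transition that were measured, 0 passed after adjustment, 3 were higher in Control at an unadjusted p under 0.05 and 2 in Cripto KO MPs, beside 4.6% and 3.99% of all genes, and the median was 0.072. Cdk6, the kinase partner of the D-type cyclins, came nearest. It was at 24.1, 27.7 and 26.5 in Control and at 37.8, 35.5 and 39.9 in Cripto KO replicates 1 to 3. The groups were far apart relative to their spread, at 26.1 ± 1.84 (SD, n = 3) and 37.7 ± 2.19 (SD, n = 3), with a log2 fold change of -0.53 (standard error 0.091, limma, adjusted p = 0.0958). Its fold change kept its sign in each of the 17 alternatives, and its adjusted p, from 0.00538 to 0.489, was under 0.05 with DESeq2 and with limma's robust option (0.0469). The sum of the fibroblast markers, given above, was also higher in each Cripto KO sample. By gene, Col1a1, Col1a2, Col3a1 and the low Pdgfra were higher in each, while Dcn and Lum overlapped between the groups. The sum of the neutrophil markers was higher too, at 115 to 127 in Control against 136 to 139.9 in Cripto KO MPs. Most of that difference was Mmp9, at 15.2 to 22.4 in Control against 39.3 to 45.6 in Cripto KO MPs, while Csf3r, the most abundant of these markers, was at 97.0 to 103.7 against 90.998 to 99.3, and S100a9 and Retnlg had 0 reads throughout. Their part in the Cdk6 value was not tested. Rbl2, which encodes the retinoblastoma-like protein p130, had a fold change of 0.27 and Max, the partner of Myc, of 0.20, each with an adjusted p of 0.494 by limma and with every Control value above the Cripto KO values.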

How the data were processed

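The authors prepared libraries from total RNA (NEBNext Ultra), checked reads with FastQC, trimmed them with cutadapt 1.7.1, which discarded reads under 30 bp, quantified them on the mouse transcriptome (GRCm38, Ensembl release 91) with RSEM 1.2.20 and normalized them with limma. edgeR is also named in their processing notes. Each deposited value is a normalized signal, namely the sum of the gene's reads and 0.5, scaled to a normalized library of 1000000 reads. All 78048 values (100.0%) gave back whole reads within 0.01, and 0 of them were 0.

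Groups followed the labels. The test was limma 3.58.1 (R 4.3.3), with lmFit and trended eBayes, on log2 values, with no pseudocount or filter, over 13008 genes with Benjamini-Hochberg adjustment. The member list and the pathway lists were chosen with earlier results of these data known, so no test was made over a list. Named with the value in every sample were 23 members from a set list and any other with an unadjusted p under 0.05 or groups without overlap, which added Ube2c. Also named, with or without the value in every sample, were the 3 genes with the smallest p in each pathway list. Cdkn2a and Cdkn2b were not analysed here. The 17 alternatives added a pseudocount (0.5 or 1), kept genes with a mean of 1 or more, centred medians, matched quantiles, dropped the eBayes trend, used robust eBayes, used voom, edgeR 4.0.16 or DESeq2 1.42.0 on the recovered reads, blocked on replicate number, or left out each of the 6 samples. Exon lengths and 31-base words shared between genes came from GENCODE M21 on GRCm38. Tests were first run on simulated data. Python 3.11.15 was used for tables and figures.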

Additional observations from a re-analysis of the deposited data

How the results depend on the processing

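Of 46 members, 0 had an adjusted p under 0.05 in any of 17 alternatives, the lowest being 0.285 (limma). The number of all genes past that threshold, 17 with limma, was 6 with quantile normalization, 5 with eBayes without a trend, 31 with the robust option, 9 with voom, 71 with DESeq2 and 17 with edgeR, and 5 to 31 when 1 sample was left out. Members at an unadjusted p under 0.05, 2 with limma, were 1 with quantile normalization, 0 with eBayes without a trend and 0 to 6 when 1 sample was left out. With limma on all samples 4.6% of all genes were higher in Control and 3.99% in Cripto KO MPs at that threshold. Without Control replicate 1 these shares were 5.44% and 5.01%. For quantile normalization and eBayes without a trend the share is not given, so those counts lack a background. When 1 sample was left out, members higher in Control, 19 with all samples, went from 11 to 31. The median log2 fold change then went from -0.24 to 0.039 for mitosis, -0.057 to 0.031 for DNA replication and -0.076 to 0.12 for G1/S. The cause was not tested.

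With all 6 samples kept, the fold change turned for Mcm6 (-0.030), Cdc6 (0.015) and Hmgb2 (-0.0076) with quantile normalization and for Mcm2 (-0.0080) and Mcm6 (-0.0061) with voom. Leaving out 1 sample turned 25 members, and 21 kept their direction in every alternative. The log2 fold changes of those that turned ranged so: Mki67 -0.24 to 0.033, Top2a -0.21 to 0.20, Ccna2 -0.24 to 0.15, Ccnb1 -0.62 to 0.022, Cdk1 -0.26 to 0.044, Aurka -0.13 to 0.081, Aurkb -0.080 to 0.29, Birc5 -0.10 to 0.20, Bub1 -0.0048 to 0.32, Kif20a -0.42 to 0.0072, Kif23 -0.0072 to 0.24, Cenpf -0.28 to 0.22, Prc1 -0.34 to 0.050, Mcm2 -0.090 to 0.14, Mcm3 -0.020 to 0.095, Mcm5 -0.087 to 0.14, Mcm6 -0.073 to 0.14, Gins2 -0.091 to 0.11, Cdc6 -0.16 to 0.084, Rrm1 -0.054 to 0.018, Rrm2 -0.090 to 0.29, Tyms -0.42 to 0.11, E2f2 -0.076 to 0.17, Stmn1 -0.024 to 0.23 and Hmgb2 -0.034 to 0.054. The cause was not tested.

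The labels name no pairing of the samples by replicate number. Deviations of same-numbered samples from their group means correlated at -0.21, -0.0052 and -2.46e-05 over 11960 genes. Those of differently numbered samples correlated at -0.15 to 0.14. With 3 samples per group the deviations within a group are not independent, so they cannot decide whether same-numbered samples were paired. A replicate block left 2 of all genes past the adjusted threshold. It left 1 member at an unadjusted p under 0.05, a count without the share of all genes beside it. Counting error limits Ccne2 and Ccnd2, which had as few as 19 reads in a sample, and Cenpf, with 42.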
